A study of Mus musculus with 8 samples.

Results

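The neuropeptide genes followed here in developing mouse sympathetic ganglia numbered 8, namely *Npy*, *Vip*, *Sst*, *Gal*, *Pyy*, *Cartpt*, *Penk*, and *Adcyap1*. They were taken by symbol, and the rule uses no measured value, although earlier results of these data were known when the set was made up. All 8 are among the 13506 genes tabulated at E11.5, and 7 are among the 13413 genes tabulated at E14.5. *Pyy* has no entry at E14.5, which places it under an FPKM of 1 in both genotypes there, because the tables start at that level. FPKM counts the fragments of a transcript relative to its length and to the sequenced total, so that levels of different genes can be set side by side within a column.

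At E11.5, ganglia with *Isl1* deleted in the neural crest (*Wnt1-Cre;Isl1* f/f, called CKO, and Isl1-/- in the labels) were compared with *Wnt1-Cre;Isl1* +/+ control ganglia, both on a *Rosa26-tdTomato* reporter background that guided the dissection under fluorescence. At E14.5, *Isl1* hypomorphic ganglia (*Isl1* f-neo/f-neo, a line with reduced *Isl1*, called Isl1 mutation in the labels) were compared with wildtype ganglia. Each genotype had 2 RNA-seq libraries, made from pools of about 10 embryos, and the labels name neither litter nor sex. *Wnt1-Cre* acts in all derivatives of the neural crest, glia included, and also in the dorsal neural tube.

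Only 1 combined FPKM value per genotype was analysed here, so these values hold no replicate check on any difference below. The paper reports separate qPCR with replicates for some of these genes. In CKO ganglia it gave lower *Vip* and *Chga* and higher *Pyy* and *Chgb*. For qPCR of the E11.5 stage the paper's methods describe ganglia that were digested and sorted by fluorescence (FACS). In hypomorphic ganglia at E14.5 the qPCR gave higher *Vip* and *Sst*, and the paper also reports in situ hybridization of both genes in ganglia of that stage. The read depth and the spread between libraries are unknown, no test was made, and "higher" and "lower" describe the combined values. *Isl1* was listed at 133 FPKM in control and 40.0 in CKO ganglia, 30.2% of control, and at 162 in wildtype and 83.1 in hypomorphic ganglia, 51.3% of wildtype. These values cover the whole gene and do not separate deleted from intact transcripts. Noradrenergic genes marked the tissue in all 4 columns. *Dbh*, which encodes the enzyme that makes noradrenaline, was listed between 543 and 608 FPKM.

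Neuropeptides are cut from larger precursors in the secretory pathway, stored in dense core vesicles, and released beside the small transmitters to act on G protein-coupled receptors. In the mature sympathetic system, NPY accompanies noradrenaline in most vasoconstrictor neurons, whereas VIP is typical of the cholinergic neurons that supply sweat glands. Galanin and VIP are also known to be induced in sympathetic neurons by cytokines that signal through gp130, and PACAP, the product of *Adcyap1*, is the peptide of the preganglionic input. Early sympathetic neuroblasts carry mixed traits before these classes separate.

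In E11.5 CKO ganglia, 5 of the 8 neuropeptide genes were at least 1.5-fold higher and 2 were at least 1.5-fold lower. Across all genes of that table the corresponding shares were 18.9% higher and 12.9% lower. The differences were unequal in size. *Pyy*, *Penk*, and *Adcyap1* were more than 6 times as high in CKO as in control ganglia, *Gal* and *Sst* just under 2 times as high, and *Vip* and *Npy* were lower. The median log2 ratio of the 8 genes was 0.89, beside 0.05 for all genes (quartiles -0.31 and 0.45). Ratios are of FPKM + 0.1, an addition that draws the ratios of scarce genes toward 0. All 8 were at an FPKM of 1 or more in both genotypes, so none entered the table through the CKO value alone.

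**Figure D1:**
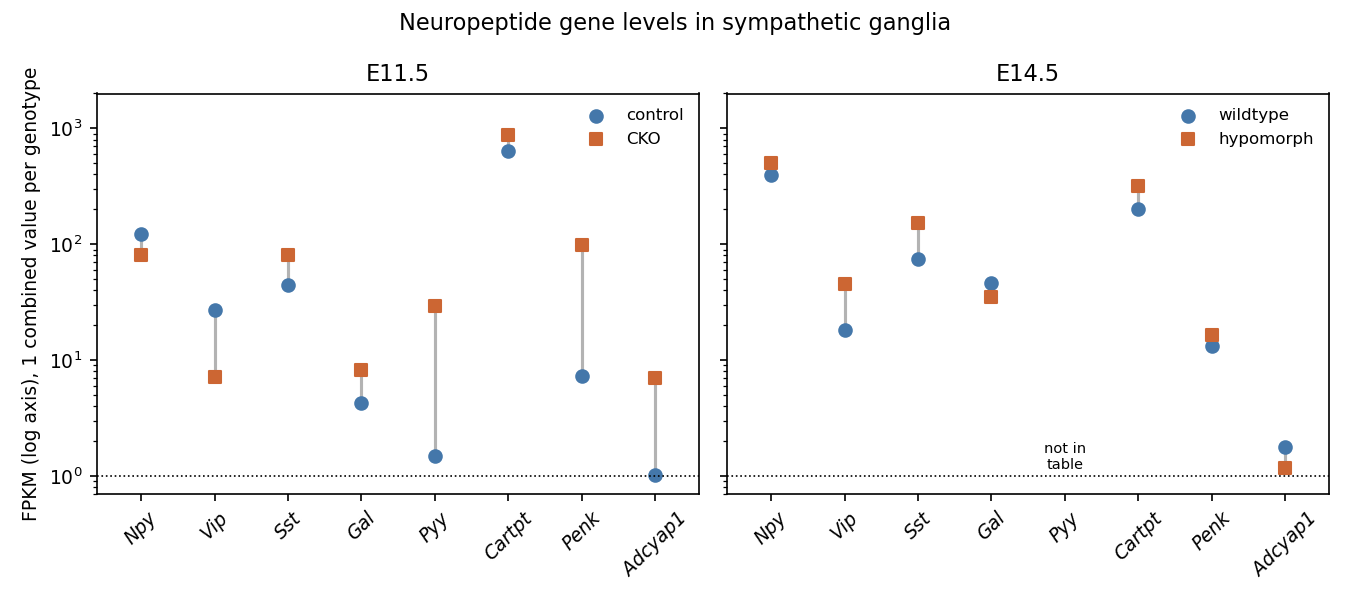
FPKM of the 8 neuropeptide genes on a log axis, with the control or wildtype value as a circle and the CKO or hypomorphic value as a square, 1 combined value per genotype and no error bars. The dotted line is the lowest level at which a gene is tabulated (FPKM 1). At E11.5 *Pyy*, *Penk*, and *Adcyap1* have the longest upward steps and *Vip* the longest downward step, while at E14.5 *Vip* and *Sst* step upward.

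*Vip* encodes vasoactive intestinal peptide, a vasodilator and a peptide of cholinergic sympathetic neurons. Its level was 26.9 FPKM in control and 7.18 FPKM in CKO ganglia at E11.5, a log2 ratio of -1.89. Ordered by ratio among the 10274 genes that reached 5 FPKM, it stood at place 128 from the lowest. It was thus the member with the steepest difference downward. A smaller number of *Vip*-expressing cells and a lower level per cell cannot be told apart in these pooled ganglia, and this holds for each gene below.

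*Npy* encodes neuropeptide Y, the main peptide partner of noradrenaline. It was listed at 123 FPKM in control and 81.6 FPKM in CKO ganglia, a log2 ratio of -0.59 that lies just past the 1.5-fold limit. The median of 20 pan-neuronal genes was -0.44 in the same libraries, and read against that median the ratio of *Npy* was -0.15. The ratio of *Vip* against the same median was -1.45. *Npy* thus lay close to the middle of the neuronal genes, and *Vip* well below it.

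*Cartpt* encodes the CART peptide precursor and was by far the most abundant member at E11.5, at 638 FPKM in control and 881 FPKM in CKO ganglia. Only 93 genes of the table were higher than *Cartpt* in control ganglia. Its log2 ratio of 0.47 did not reach the 1.5-fold limit, and only after centring on the pan-neuronal genes did it pass that limit, at 0.90. *Cartpt* made up 75.4% of the summed FPKM of the 8 genes in control ganglia and 73.9% in CKO.

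*Sst*, the gene of somatostatin, an inhibitory peptide, was listed at 44.6 FPKM in control and 80.4 FPKM in CKO ganglia, 1.80-fold higher. *Gal*, the gene of galanin, was listed at 4.24 and 8.20 FPKM, 1.93-fold higher. With both scaled to the sum of non-erythroid genes, the scaling that lowered E11.5 ratios most, the log2 ratios were 0.61 for *Sst* and 0.70 for *Gal*, still past the limit. The pair thus differed in the opposite direction to *Npy* and *Vip*.

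*Penk*, *Pyy*, and *Adcyap1* had the steepest differences upward. *Penk*, which encodes the precursor of the enkephalins, was at 7.29 FPKM in control and 97.7 FPKM in CKO ganglia (log2 ratio 3.73). *Pyy*, which encodes peptide YY, a close relative of NPY known from gut endocrine cells, was at 1.49 and 29.4 FPKM (4.21). *Adcyap1*, the PACAP gene, was at 1.03 and 6.95 FPKM (2.65). In CKO ganglia *Penk* exceeded *Npy* and *Sst*, and only *Cartpt* was higher among the members.

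Genes of other tissues were also higher in the CKO libraries. Of 13 tabulated erythroid genes, 12 were at least 1.5-fold higher, beside 18.9% of all genes. Embryonic *Hba-x* was at 2572 FPKM in control ganglia and 53627 in CKO. The exception was *Hbb-y*, at 7552 FPKM in control ganglia and listed at 0 in CKO. The erythroid list summed to 10906 and 69269 FPKM with *Hbb-y*, and to 3354 and 69269 FPKM, 20.7-fold higher, without it. A gene under 1 FPKM in 1 genotype is tabulated only through the other, where it had to be higher. Of 15 genes of a trophoblast, decidua, and yolk sac list only 9 were tabulated, and 6 of these 9 were of this kind. The other 3 were also at least 1.5-fold higher, and the list summed to 15.0 and 184 FPKM. *Lama1* was at 1.82 and 70.8 FPKM, *Prl8a2* at 0.241 and 48.4, and *Gkn2* at 0.0749 and 24.9. Of a mesonephros and gonad list of 10 genes only 6 were tabulated, and these summed to 13.8 and 68.5 FPKM. Of the 6, 4 were higher, 2 of them under 1 FPKM in control ganglia, and 1 was lower. *Krt8* was at 0.690 and 21.96. The paper's qPCR also gave higher *Pyy* in CKO ganglia, and its methods describe FACS-sorted cells for qPCR at this stage. The part of these tissues in the higher levels of *Penk*, *Pyy*, and *Adcyap1* in the dissected ganglia was not tested here.

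Other neural sources were looked at by their markers. Of a pancreas and gut endocrine list, 13 of 14 genes, among them *Ins1*, *Ins2*, *Gcg*, and *Ppy*, were under an FPKM of 1 in both genotypes at E11.5, and *Cck* was at 1.89 and 7.07. Of a chromaffin list of 6 genes, which itself contains *Penk*, 3 were higher and 1 lower (median log2 ratio 0.73). *Pnmt*, which encodes the enzyme that makes adrenaline, was at 1.29 FPKM in control and 0.949 FPKM in CKO ganglia and *Chga* at 164 and 61.4, while *Resp18* was at 42.7 and 103, *Htr3a* at 0.838 and 3.23, and *Cyb561* at 153 and 174. Of 12 sensory neuron markers 5 were tabulated, with a sum of 6.35 and 13.7 FPKM, 4 of them higher and 3 of these 4 under 1 FPKM in control ganglia, and 3 of 10 enteric and spinal neuron markers, with a sum of 19.7 and 41.7. Neural crest and glial genes, 10 of 12 of which were at least 1.5-fold higher (median log2 ratio 1.11), summed to 397 and 766 FPKM. The macrophage list had 6 of 7 genes higher (median 1.13), the mesenchyme list 6 of 10 (0.71), and the endothelial list 2 of 8 (0.47). The noradrenergic list, by contrast, had 9 of 14 genes lower and 0 higher (median -0.91), and the pan-neuronal list 7 of 20 lower and 0 higher. Of all genes at E11.5, 18.9% were higher and 12.9% lower, to be read beside each of these counts.

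Setting each peptide against *Dbh* within the same column removes the scaling between columns, but the result depends on the reference gene. At E11.5 *Dbh* (log2 ratio 0.13) was the only 1 of 14 noradrenergic genes above control. Values per *Th* (-0.34) are therefore given as well. *Npy* per *Dbh* was 22.6% in control and 13.7% in CKO ganglia, and *Vip* per *Dbh* 4.94% and 1.21%. *Sst* per *Dbh* was 8.21% and 13.5%, and *Penk* per *Dbh* 1.34% and 16.4%. Per *Th*, *Npy* was 67.0% and 56.3%, *Vip* 14.6% and 4.95%, *Sst* 24.3% and 55.5%, and *Penk* 3.97% and 67.4%. The log2 difference of *Npy* was thus -0.72 per *Dbh* and -0.25 per *Th*. The *Npy* to *Vip* ratio was 4.58 in control ganglia and 11.4 in CKO. The *Npy* to *Sst* ratio was 2.76 and 1.01. The members therefore differed unequally among themselves, whatever the scaling.

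At E14.5, 3 of the 7 tabulated neuropeptide genes, *Vip*, *Sst*, and *Cartpt*, were at least 1.5-fold higher in hypomorphic ganglia. By the ratio of FPKM + 0.1, 0 were at least 1.5-fold lower, although *Adcyap1* was 1.51-fold lower by the FPKM as listed. Of all genes tabulated there, 2.89% were higher and 2.12% lower by the ratio of FPKM + 0.1. The median log2 ratio of the 7 genes was 0.36, beside 0.003 for all genes (quartiles -0.11 and 0.13). All 7 were at an FPKM of 1 or more in both genotypes.

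*Vip* was listed at 18.0 FPKM in wildtype and 45.3 FPKM in hypomorphic ganglia, 2.51-fold higher (log2 ratio 1.32). *Sst* was listed at 74.9 and 151 FPKM, 2.02-fold higher (1.01). *Cartpt* was listed at 200.5 and 320.2 FPKM, 1.60-fold higher (0.68). Of the 10366 genes that reached 5 FPKM here, *Vip* stood at place 83 and *Sst* at place 97 from the highest ratio, and *Cartpt* at place 164. In these libraries the pan-neuronal median was -0.24, so the 3 genes went against the neuronal genes as a group.

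*Npy* was the most abundant member at this stage, at 395 FPKM in wildtype and 505 FPKM in hypomorphic ganglia. Its log2 ratio of 0.36 stayed under the limit and passed it only when centred on the pan-neuronal genes, at 0.59. *Penk* was at 13.1 and 16.5 FPKM (0.32). *Gal* was at 45.9 FPKM in wildtype and 34.7 FPKM in hypomorphic ganglia (-0.40). *Adcyap1* was the lowest, at 1.78 and 1.18 FPKM (-0.55). This difference reached the limit with a pseudocount of 0.01 and, at 1.51-fold, by the FPKM as listed, but not with the other settings.

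The endothelial list differed about as much in the E14.5 libraries as at E11.5, with a median log2 ratio of 0.48, 8 of 8 genes positive, 1 of 8 past the limit, and a sum of 78.6 FPKM in wildtype and 111 FPKM in hypomorphic ganglia. The erythroid list summed to 5668 FPKM in wildtype and 6889 FPKM in hypomorphic ganglia, and the trophoblast, decidua, and yolk sac list to 27.2 and 35.04. Of these lists 4 of 15, 2 of them under 1 FPKM in wildtype ganglia, and 2 of 5 tabulated genes were at least 1.5-fold higher, with *Prl8a2*, *Gkn2*, and *Krt8* not tabulated. The mesonephros and gonad list had 1 of 4 genes lower, which was under 1 FPKM in hypomorphic ganglia, and the macrophage, mesenchyme, glial, and chromaffin lists 0 genes past the limit. The sensory neuron list had 2 of 4 genes higher (sum 5.53 and 8.06 FPKM) and the enteric and spinal neuron list 1 of 3. Of the pancreas and gut endocrine list 14 of 14 genes were under an FPKM of 1. Beside these counts, 2.89% of all genes were higher and 2.12% lower. The part of these cell types in the levels of *Vip*, *Sst*, and *Cartpt* was not tested.

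*Npy* per *Dbh* was 64.9% in wildtype and 88.9% in hypomorphic ganglia at E14.5, *Sst* per *Dbh* 12.3% and 26.6%, and *Vip* per *Dbh* 2.97% and 7.98%. Per *Th*, whose own log2 ratio was -0.43, *Npy* was 141% and 244%, *Sst* 26.8% and 72.9%, and *Vip* 6.45% and 21.9%. The *Npy* to *Vip* ratio was 21.9 in wildtype and 11.1 in hypomorphic ganglia, opposite in direction to the E11.5 comparison. *Sst* to *Vip* was 4.15 and 3.33. *Vip* was thus nearer to both *Npy* and *Sst* in hypomorphic ganglia, and more so to *Npy*.

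**Figure D2:**
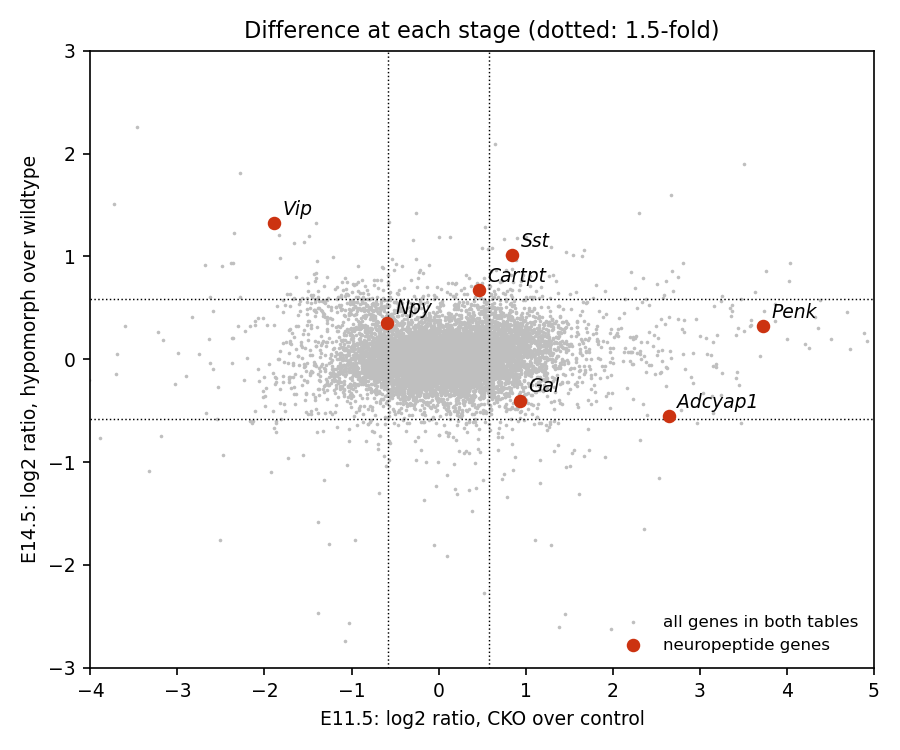
Log2 ratio of CKO over control at E11.5 (x axis) against hypomorphic over wildtype at E14.5 (y axis) for 12727 genes in both tables (grey) and the 7 neuropeptide genes among them (red), with 1.5-fold limits as dotted lines and 99 genes outside the axes. *Vip* lies at upper left (-1.89 and 1.32), *Sst* at upper right (0.85 and 1.01), and *Penk* and *Adcyap1* far to the right.

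The direction of the difference between mutant and control ganglia was not the same at both stages for each gene. *Vip* was 3.74-fold lower in E11.5 CKO and 2.51-fold higher in E14.5 hypomorphic ganglia. By the ratio of FPKM + 0.1 it was the only member past the limit in opposite directions. By the FPKM as listed, *Adcyap1* was also past it, 6.77-fold higher at E11.5 and 1.51-fold lower at E14.5. Of the 12727 genes in both tables, 110 (0.864%) were lower at E11.5 and higher at E14.5 by this limit. *Sst* was past the limit upward at both stages, as were 100 genes (0.786%). *Cartpt* and *Penk* had positive ratios at both stages, each past the limit at 1 of them. *Npy* was lower at E11.5 and higher at E14.5, and *Gal* and *Adcyap1* the reverse. By the ratio of FPKM + 0.1 the E14.5 difference of all 3 was under the limit. Stage and kind of allele differ together between these comparisons and cannot be told apart.

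The genes whose pair of ratios lay nearest to that of a member were named by Euclidean distance over both log2 ratios, among 9269 genes, or 9270 for *Adcyap1*, that reached 5 FPKM in each of the tables. For *Vip* they were *Rgs5* (-1.67 and 1.13), *Tlx3* (-1.54 and 1.14), a transcription factor gene of cholinergic sympathetic neurons, and *Shox2* (-2.38 and 0.93). For *Sst* they were *Cxcl13* (0.83 and 0.82), *Ntm*, and *Ccdc109b*. For *Cartpt* they were *Cxcl12* (0.47 and 0.68), *Klhl4*, and *Spock3*. For *Npy* they were *Gas2l3*, *Tmpo*, and *Cks2*, and for *Gal* they were *Eno2*, *Kcnc4*, and *Slc7a8*. For *Penk* they were *Hbb-bs* (3.70 and 0.31), *Trim10*, and *Rhd*, which are all known from red cells. For *Adcyap1* they were *Upk3b* (2.35 and -0.43), *Ccdc184*, and *Tcp11l2*. The likeness rests on 2 ratios without replicates and is a description only.

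The order of the members by level differed between the control columns of the stages. In E11.5 control ganglia it was *Cartpt*, *Npy*, *Sst*, *Vip*, *Penk*, *Gal*, *Pyy*, and *Adcyap1*. In E14.5 wildtype ganglia it was *Npy*, *Cartpt*, *Sst*, *Gal*, *Vip*, *Penk*, and *Adcyap1*. Without values per library it is not known which neighbours differ beyond their spread. The stages were tabulated separately and the E11.5 controls carry *Wnt1-Cre* and the reporter, so levels of different stages are only set side by side. *Npy* was at 123 FPKM at E11.5 and 395 at E14.5, and its percentile among all tabulated genes was 95.5 and 99.1. *Gal* was at 4.24 and 45.9 FPKM, at percentiles 25.6 and 84.8. *Cartpt* was at 638 and 200.5 FPKM, at percentiles 99.3 and 97.96, and *Vip* at 26.9 and 18.0 FPKM, at percentiles 75.4 and 60.2. *Gal* showed the largest shift in place among the members in both tables.

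**Figure D3:**
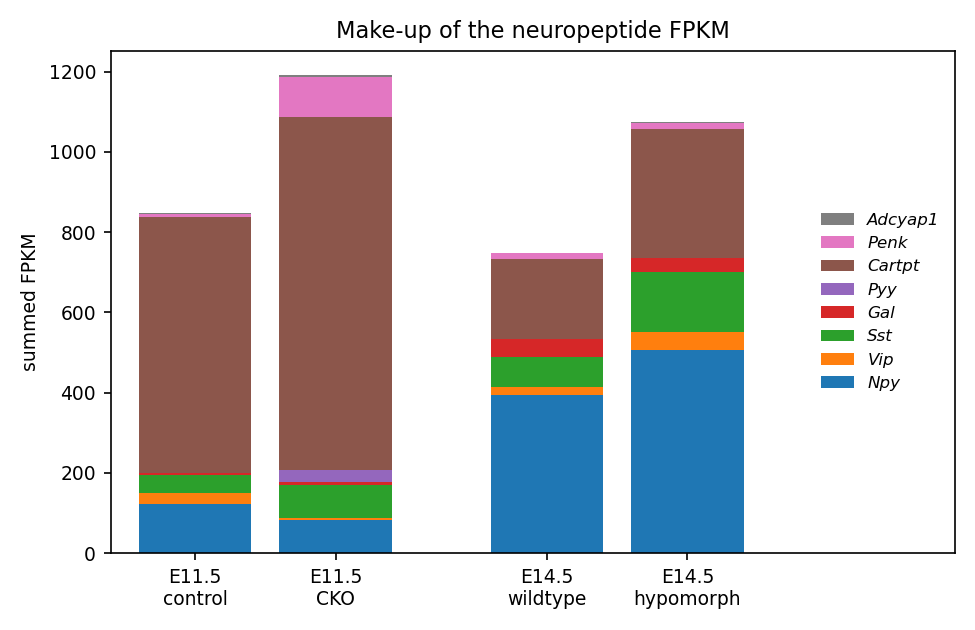
FPKM of the neuropeptide genes stacked for each combined column, so that bar height is their sum. *Cartpt* takes 75.4% of the E11.5 control bar and *Npy* 52.7% of the E14.5 wildtype bar, and the mutant bar is the taller one at both stages.

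The summed FPKM of the members was 847 in control and 1193 in CKO ganglia at E11.5, and 749 in wildtype and 1074 in hypomorphic ganglia at E14.5. As a share of all tabulated FPKM it was 0.178% and 0.193% at E11.5, and 0.167% and 0.244% at E14.5. *Npy* held 14.5% of the members' sum in E11.5 control and 6.84% in CKO ganglia, where *Penk* held 8.19%. At E14.5 the share of *Npy* was 52.7% in wildtype and 47.0% in hypomorphic ganglia, that of *Sst* 10.0% and 14.1%, and that of *Vip* 2.41% and 4.22%.

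In the mm9 genome (NCBIM37, GENCODE vM1 annotation), *Vip* lies on chromosome 10 from 4698927 to 4707323, *Sst* on chromosome 16 from 23889667 to 23890930, and *Cartpt* on chromosome 13 from 100668439 to 100670638, all on the minus strand. *Penk* lies on chromosome 4 from 4060678 to 4065966, *Pyy* on chromosome 11 from 101967990 to 101969146, and *Gal* on chromosome 19 from 3409919 to 3414472, also on the minus strand. *Npy* lies on chromosome 6 from 49772709 to 49779506 and *Adcyap1* on chromosome 17 from 93598762 to 93604825, on the plus strand. Their longest annotated transcripts run from 555 bases (*Pyy*) to 2088 bases (*Adcyap1*).

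A short motif was looked for ahead of the start sites. The cAMP response element, TGACGTCA, is the known binding site of CREB family factors, and its first 7 letters, TGACGTC, were searched on both strands in the 250 bases before each RefSeq start site (GRCm38.p6), so that each match of the longer motif is also a match of the shorter. The table of these windows held 7 of the 8 members, without *Penk*. TGACGTC was in 4 of these 7, namely *Vip*, *Sst*, *Cartpt*, and *Adcyap1*, and in 3.16% of 27025 genes. The whole of TGACGTCA was in *Sst* and *Cartpt* and in 1.77% of genes. *Npy*, *Gal*, and *Pyy* held neither set of letters in this window. Each window matched mm9 exactly once. The 120 bases that end at the start site are shown for the 4 genes to let the position and surroundings of the motif be compared, 5′ to 3′ on the strand of the gene, with the motif in capitals.
Vip, chr10:4707324-4707443, minus strand: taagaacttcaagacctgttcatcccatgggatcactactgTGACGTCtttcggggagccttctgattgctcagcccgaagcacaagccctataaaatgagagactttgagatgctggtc
Sst, chr16:23890931-23891050, minus strand: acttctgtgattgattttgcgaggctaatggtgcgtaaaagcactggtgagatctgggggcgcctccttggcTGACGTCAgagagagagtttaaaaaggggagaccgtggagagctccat
Cartpt, chr13:100670639-100670758, minus strand: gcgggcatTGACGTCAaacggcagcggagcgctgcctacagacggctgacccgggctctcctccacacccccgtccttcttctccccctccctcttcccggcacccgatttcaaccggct
Adcyap1, chr17:93598237-93598356, plus strand: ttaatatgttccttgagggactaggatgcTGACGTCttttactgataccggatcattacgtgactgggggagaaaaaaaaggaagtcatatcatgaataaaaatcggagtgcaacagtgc

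The motif began 48 bases before the start site in *Sst*, 79 in *Vip*, 112 in *Cartpt*, and 91 before the first of the start sites of *Adcyap1*. The 4 genes with the motif had log2 ratios from -1.89 (*Vip*) to 2.65 (*Adcyap1*) at E11.5 and from -0.55 (*Adcyap1*) to 1.32 (*Vip*) at E14.5. Whether the motif has a part in these differences was not tested. A match describes letters in a window, and binding there was not measured by these files.

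**Figure D4:**
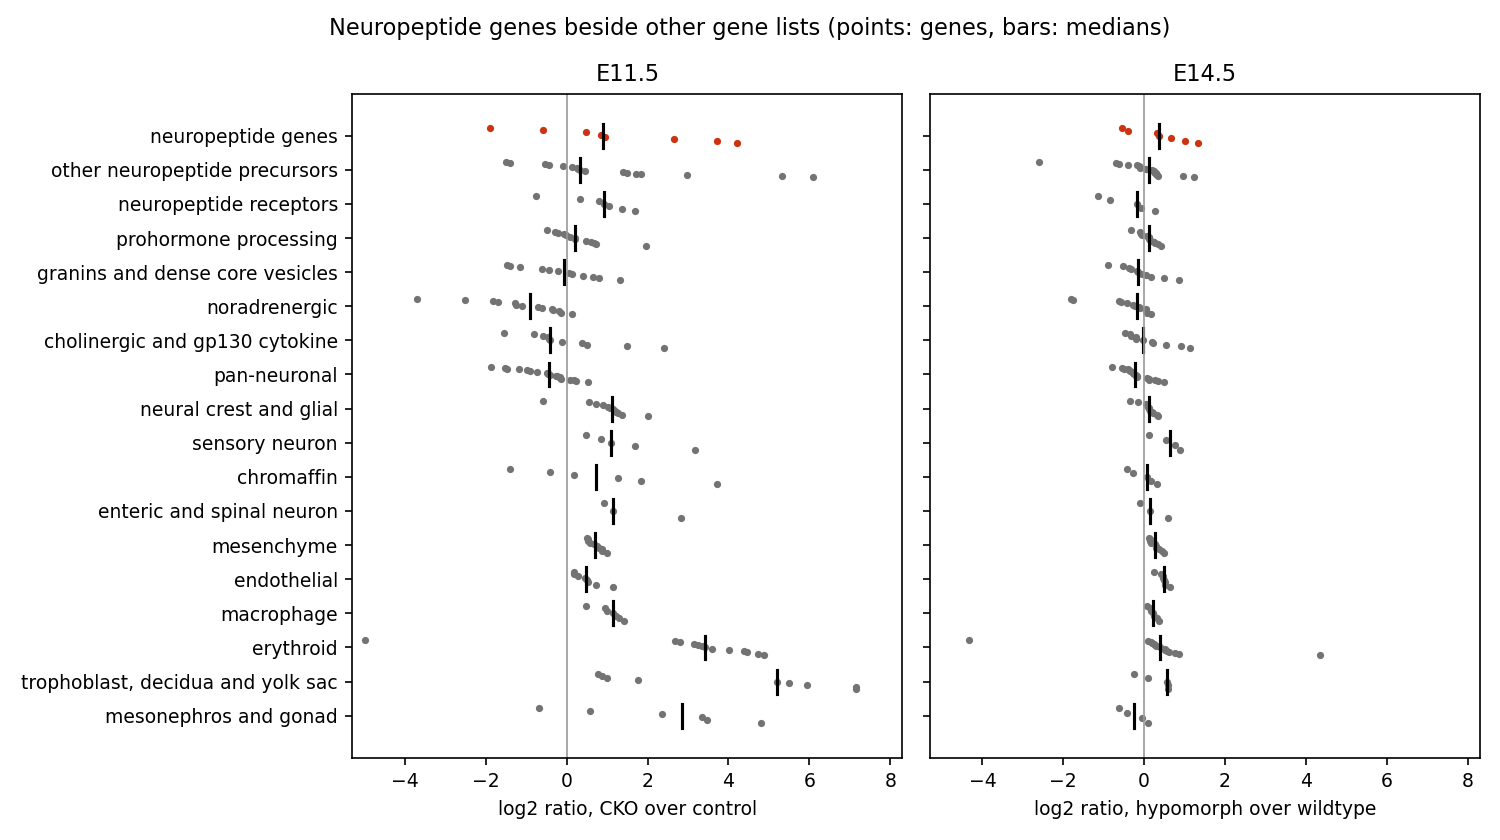
Log2 ratio of each gene (points) and the median (black bar) for the neuropeptide genes (red) and the other lists (grey) at both stages, without the pancreas and gut endocrine list, of which 1 gene was tabulated. One erythroid gene, *Hbb-y*, listed at 0 in CKO ganglia, is drawn at the left edge. The E11.5 lists spread from a noradrenergic median of -0.91 to a trophoblast, decidua, and yolk sac median of 5.21, and the E14.5 medians stay between -0.24 and 0.65.

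Most other neuropeptide precursor genes were scarce. Of 51 listed, 17 were tabulated at E11.5 and 20 at E14.5, and their summed FPKM was 42.3 in control and 87.6 in CKO ganglia and 82.5 in wildtype and 82.0 in hypomorphic ganglia. At E11.5, 7 of the 17 were at least 1.5-fold higher and 2 lower, but 4 of these 7 were under 1 FPKM in control ganglia and both lower ones in CKO, so that the table's limit fixed their direction. Of the 9 at 1 FPKM or more in both genotypes, 3 were higher and 0 lower. Of all 12440 genes at that level in both genotypes, 1925 were higher and 1471 lower. *Pnoc*, the gene of the nociceptin precursor, was at 0.323 FPKM in control and 16.7 FPKM in CKO ganglia, *Nppa*, which encodes atrial natriuretic peptide, at 0.0765 and 11.98, and *Sct*, which encodes secretin, at 0.689 and 6.06. *Adm*, the adrenomedullin gene, was at 14.5 and 17.5 FPKM. At E14.5, 1 of 16 such genes was higher and 2 were lower, beside 244 and 229 of all 13019 genes at that level. *Pthlh*, which encodes a parathyroid hormone-related peptide, was at 6.88 FPKM in wildtype and 1.05 FPKM in hypomorphic ganglia, and *Vgf* was at 15.9 and 16.5.

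Receptors for these peptides were few. Of 23 listed symbols, 7 were tabulated at E11.5 and 5 at E14.5. The 5 that were higher at E11.5 were all under 1 FPKM in control ganglia, and the 2 that were lower at E14.5 were under it in hypomorphic ganglia, so the table's limit fixed these directions. At either stage 2 receptor genes were at 1 FPKM or more in both genotypes. *Adcyap1r1*, the receptor gene for PACAP, was the most abundant, at 34.1 FPKM in control and 20.0 FPKM in CKO ganglia (log2 ratio -0.76) and at 64.4 and 61.5 at E14.5. *Oprl1*, the nociceptin receptor gene, was at 17.0 and 21.2 FPKM at E11.5 and at 34.8 and 30.9 at E14.5. *Npy2r*, a presynaptic NPY receptor gene, was absent from the E11.5 table and was listed at E14.5 at 2.02 and 0.866 FPKM. The E11.5 ratio of *Adcyap1r1* lay between the medians of the pan-neuronal (-0.44) and noradrenergic (-0.91) lists. *Adcyap1* itself was higher in the same CKO libraries, but from 1.03 FPKM in control ganglia, near the lowest tabulated level.

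The enzymes that cut and finish the precursors were looked at next. Of 13 processing genes tabulated at E11.5, 4 were higher (*Dpp4*, *Pcsk6*, *Scg5*, and *Mme*) and 0 lower, beside 18.9% and 12.9% of all genes, with *Dpp4* under 1 FPKM in control ganglia. Of 14 at E14.5, 0 passed the limit. *Cpe*, which encodes carboxypeptidase E, was at 131 and 124 FPKM at E11.5 and at 249 and 239 at E14.5. *Pam*, which encodes the enzyme that amidates NPY, VIP, and other peptides, was at 66.9 and 47.8 FPKM at E11.5 and at 61.8 and 78.7 at E14.5. *Scg5*, the gene of the chaperone of a prohormone convertase, was at 25.5 and 40.4 FPKM at E11.5. Among 12 granin and dense core vesicle genes at E11.5, 4 were lower and 3 higher, beside the same 12.9% and 18.9% of all genes. They summed to 546 FPKM in control and 446 FPKM in CKO ganglia. Among those lower were *Chga*, at 164 and 61.4 FPKM, and *Snap25*, at 104 and 37.2. At E14.5, 1 of 11 was lower and 1 higher, beside 2.12% and 2.89% of all genes. *Chgb*, the chromogranin B gene, was at 69.5 and 174 FPKM at E11.5 and at 314 and 169 at E14.5, and *Scg2* was at 10.3 and 18.9 FPKM at E14.5.

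Cholinergic and gp130 receptor genes were set beside *Vip* and *Sst*. At E14.5, 2 of 11 tabulated genes of this list were higher and 0 lower, beside 2.89% and 2.12% of all genes. Those higher were *Tlx3*, at 32.8 FPKM in wildtype and 72.3 FPKM in hypomorphic ganglia, and *Ret*, at 68.8 and 130. Of the 11 genes, 6 had a negative and 5 a positive log2 ratio (median -0.02). *Slc18a3* was at 32.0 FPKM in wildtype and 25.5 FPKM in hypomorphic ganglia, *Chat* at 1.64 and 1.41, and *Slc5a7* at 1.84 and 2.70, none past the limit. The receptor genes *Lifr* (26.8 and 19.2 FPKM) and *Cntfr* (105 and 90.5 FPKM) were not past the limit. At E11.5, 3 of 11 were lower and 2 higher, beside 12.9% and 18.9% of all genes. *Tlx3* was at 49.5 FPKM in control and 16.9 FPKM in CKO ganglia, *Lifr* at 11.6 and 6.56, and *Slc5a7*, which encodes the choline transporter, at 2.64 and 14.5. On the noradrenergic side at E14.5, 3 of 14 genes were lower, among them *Hmx1*, at 366 and 108 FPKM.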

How the data were processed

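RNA-seq was made by the authors from polyA RNA of dissected ganglia, with 2 libraries in each of 4 groups (8 samples). The deposited FPKM came from the authors' TopHat alignment and cuffdiff run, in which both libraries of 1 genotype were merged into 1 value. No tabulated gene is under 1 FPKM in both genotypes. The study's methods name mm9. The submitters' processing notes list TopHat 1.3.1, Cuffdiff 1.3.0, Bowtie, and dm3, a fruit fly build, although the gene symbols are those of mouse. The log2 fold changes and p-values of the authors' own comparison were not used. Read numbers are not in these tables, so no precision could be given.

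Log2 ratios of FPKM + 0.1 were computed, and 1.5-fold was the limit. Genes named beside the members were *Isl1*, the 3 most abundant of each list, the 3 with the largest ratio among genes that reached 5 FPKM, and the 3 nearest to each member. *Pnmt* and *Htr3a* at E11.5, *Dpp4*, *Pcsk6*, and the endocrine markers under 1 FPKM fall outside this rule and were chosen after their values were seen. The same holds for *Th*, and for *Chat*, *Slc18a3*, and *Slc5a7* at E14.5. Not every gene that the rule names is reported here. The members and the 19 lists were chosen with earlier results of these data known. Counting was tested on simulated data, in which 100 of 100 lower and 100 of 100 higher genes were recovered among 13506 genes (E11.5) and among 13413 genes (E14.5). The simulated differences were 2-fold with a log2 noise of 0.1, so recovery at the 1.5-fold limit was nearly certain. This checks the counting step only, and not how far the counts would hold between libraries. Alternatives were pseudocounts of 1 and 0.01, other scalings and centrings, fold limits of 2 and 1.2, filters on FPKM, and lists without shared genes. Promoter sequences were those of RefSeq. Python 3.11.15, numpy 2.4.6, pandas 2.3.3, and matplotlib 3.10.9 were used.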

Additional observations from a re-analysis of the deposited data

Results flagged for a closer look

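The log2 ratio of *Vip* at E14.5 (hypomorphic over wildtype, 1.32) exceeded that at E11.5 (CKO over control, -1.89) by 3.21. It was marked because the combined values lie past the 1.5-fold limit in opposite directions at the 2 stages. The difference was not tested, since single libraries were not analysed here.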

How the results depend on the processing

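Of 90 recomputed log2 ratios of members, 88 moved by less than 0.58 and 0 reversed. With a pseudocount of 1 the E11.5 ratio of *Pyy* was 3.61 and that of *Adcyap1* 1.97, against 4.21 and 2.65. At E11.5 the count of lower members was 1 in place of 2, without *Npy*, at 2-fold and when centred on pan-neuronal genes. Of 13504 genes with a single entry, 652 and 616 were lower in these settings. The count of higher members was 3 in place of 5 at 2-fold, without *Sst* and *Gal*, beside 1135 of the 13504 genes. At E14.5 the count of lower members was 1 (*Adcyap1*) in place of 0 with a pseudocount of 0.01 and 2 (*Gal* and *Adcyap1*) at 1.2-fold. Of 13411 genes with a single entry, 294 and 1209 were lower in these settings. The count of higher members was 5 in place of 3 at 1.2-fold, beside 1638 of the 13411 genes. These changes follow from the limit or the scale itself. Scaling without erythroid genes moved the median of all genes at E11.5 from 0.05 to -0.18, and centring on pan-neuronal genes moved it to 0.49 at E11.5 and 0.24 at E14.5. Leaving out genes shared between lists moved 4 of 76 list counts by over 1.5 times. No paired analysis was possible because the tables hold 1 combined value per genotype, and for the same reason no library could be left out. Depth is unknown, and members near an FPKM of 1 (*Adcyap1*, and *Pyy* in control ganglia) are the least certain.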
